A study of Mus musculus with 6 samples.

Results

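Genes that hold neighbouring gut epithelial cells together were compared between 2 genotypes of mice treated to develop colitis-associated tumors. The 40 genes, of 52550 listed, encode claudins and other tight junction proteins, polarity proteins, adherens junction proteins and desmosomal proteins. They were chosen by name for their place in these structures, by a rule that uses no measured value but was set with earlier results of these data known. RNA-seq was performed on colon epithelium from 6 samples, 3 labelled Zfp90fl/fl and 3 labelled Zfp90deltaIEC, in which Zfp90, a zinc finger gene, had been deleted from intestinal epithelial cells. Zfp90fl/fl mice carry loxP sites around part of Zfp90 and retain the gene, whereas in Zfp90deltaIEC mice Cre under the Villin promoter, which is active along the whole intestinal epithelium, removes that part. All were male C57BL/6 mice aged 6 to 8 weeks by the sample labels, given azoxymethane (AOM, a carcinogen) at 10 mg/kg and, 5 days later, 3 cycles of 2% dextran sulfate sodium (DSS, which injures the colon lining) for 7 days, each followed by 14 days of plain water, and killed on day 80. The paper gives other values for the DSS dose and the age. Epithelium was detached with EDTA and DTT, and the share of tumor in each sample is not given in the sources used here. Mice of each genotype were housed apart, so cage and genotype cannot be told apart. The genotype field of Zfp90deltaIEC replicates 2 and 3 names neighbouring gene numbers (Zfp91 and Zfp92), and these samples were grouped by title.

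Tight junctions seal the space between epithelial cells near the lumen. Their strands are built of claudins, some of which close the space while Cldn2 and Cldn15 form channels for cations and water. Occludin and the other MARVEL proteins lie in the same strands, and the scaffold proteins Tjp1 (ZO-1), Tjp3 (ZO-3) and cingulin tie them to actin. Below them, E-cadherin (Cdh1) and its catenins form the adherens junction, and desmosomes couple the keratin filaments of adjacent cells. In the colon, barrier leak through these junctions is a known companion of colitis.

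The deleted gene was checked first. Expression of Zfp90, in FPKM (fragments counted for a gene, scaled to the length of its transcript in kilobases and to the depth of the library), was 0.630, 0.490 and 0.569 in the 3 Zfp90fl/fl samples, listed here and throughout in the order of their replicate numbers. It was 0.0846, 0.195 and 0.166 FPKM in the 3 Zfp90deltaIEC samples. All Zfp90deltaIEC values, including those of the samples labelled with other gene numbers, lay below all Zfp90fl/fl values. Because every value was below 1 FPKM, Zfp90 was not among the genes of the main test. The mean FPKM was lower by 73.6% in Zfp90deltaIEC samples. In a fit without a filter on level, the log2 fold change of FPKM + 1 was -0.44 (unadjusted p = 2.75e-04, adjusted p = 0.123, limma). The added 1 shrinks this fold change strongly at so low a level. In GRCm38 Zfp90 lies on chromosome 8, and Cdh1, the E-cadherin gene, starts 176753 bases beyond its end at position 106603351, with Cdh3 between them.

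Among the markers of cell types, 10 epithelial genes summed to 7356 to 8304 FPKM in the Zfp90fl/fl samples and to 7152 to 7934 FPKM in the Zfp90deltaIEC samples. The 12 leukocyte genes, by contrast, summed to 10.5 to 11.5 FPKM against 3.999 to 5.50 FPKM. The mean of each of the 12 was lower in Zfp90deltaIEC samples, where 57.2% of all genes tested had a log2 fold change below 0. Only 2 of the 12 reached 1 FPKM in at least 3 samples, and 0 passed the test (lowest adjusted p = 0.066, limma). Sums were at most 2.94 FPKM in every sample for the endothelial, fibroblast, smooth muscle, enteric glia and neuron, and squamous lists. Listed at 0 in every sample were 1 of 8 endothelial, 2 of 7 glial and neuronal, 3 of 10 squamous and 0 of the fibroblast and smooth muscle genes, and the highest single value in these lists was 1.99 FPKM, for Pdgfrb of the fibroblast list. Of these 5 sums, those of endothelium and smooth muscle did not overlap between genotypes and were higher in Zfp90deltaIEC samples. They were at 0.790 to 0.841 FPKM against 0.428 to 0.555 FPKM, and at 1.157 to 1.36 FPKM against 0.606 to 1.154 FPKM. In these 2 lists 0 genes reached 1 FPKM in at least 3 samples. By mean, 4 endothelial genes were higher and 3 lower in Zfp90deltaIEC samples, and 5 smooth muscle genes were higher and 2 lower. Surface colonocyte genes, 9 in number, summed to 5377 to 7071 FPKM against 8589 to 13004 FPKM, and Car1, an enzyme of mature colonocytes, supplied most of that sum with 4033 to 5628 FPKM against 6349 to 10059 FPKM. Of these 9 genes, 6 had a higher and 3 a lower mean in Zfp90deltaIEC samples, and Cyp2c55 passed the test (log2 fold change 2.12, adjusted p = 0.00823, limma). The 8 goblet cell genes summed to 2114 to 2607 FPKM against 2701 to 3629 FPKM, with the highest sum in Zfp90deltaIEC replicate 1. Of these 8 genes, 7 had a higher and 1 a lower mean in Zfp90deltaIEC samples. Their lowest log2 fold change was -1.18, and 0 passed the test. Crypt base genes, 9 in number, summed to 36.4 to 43.8 FPKM against 35.3 to 41.3 FPKM, and 4 genes of the distal colon to 75.9 to 90.3 FPKM against 60.3 to 87.2 FPKM. By mean, 7 crypt base genes were lower and 2 higher in Zfp90deltaIEC samples. All 4 distal colon genes were lower by mean, and 0 genes of either list passed the test. In bulk tissue, fewer cells of a type and less RNA per cell cannot be told apart, and the part of these shifts in any junction value was not tested.

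No junction gene passed the test between genotypes. Of the 40 genes, 38 reached 1 FPKM in at least 3 samples and were tested with limma on log2(FPKM + 1), and 0 of the 38 had an adjusted p below 0.05, where 0.199% of the 11564 genes tested did (0.13% lower and 0.0692% higher in Zfp90deltaIEC samples). The lowest adjusted p was 0.183, that of the desmosomal cadherin gene Dsc2. At an unadjusted p below 0.05 there were 7 of 38 (18.4%), against 14.6% of all genes. Of these, 6 were lower in Zfp90deltaIEC samples (Dsc2, Cldn8, Tjp3, Marveld2, Dsp and Patj), where 8.09% of all genes were, and 1 was higher (Cldn4), where 6.56% of all genes were. The 3 samples of each genotype did not overlap in 9 of the 38 (23.7%), against 21.3% of all genes. All 9 lay lower in Zfp90deltaIEC samples, with 12.6% of all genes lower without overlap and 8.73% higher. Overlap was judged on the deposited FPKM here and below, and was not recounted after median ratio scaling. The factors of that scaling were 1.005 to 1.02 in Zfp90fl/fl samples and 0.986 to 1.003 in Zfp90deltaIEC samples, so narrow gaps may depend on it. Those of Marveld3 and Pkp2 do, since division by the factors makes their groups overlap.

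The log2 fold change, Zfp90deltaIEC over Zfp90fl/fl, was below 0 in 26 of the 38 genes (68.4%) and in 57.2% of all genes tested. With median ratio scaling these became 20 of 38 and 49.7%, since F11r, Prkci, Cdh1, Ctnna1, Epcam and Pkp3, all near 0, moved above it. The median over the 38 was -0.028, beside -0.023 over all genes. The 95% confidence interval lay within 1 on the log2 scale (a change of 2-fold in either direction) for each of the 38. For 34 it lay within 0.5, the others being Cldn2, Cldn4, Cldn8 and Cldn12.

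**Figure D1:**
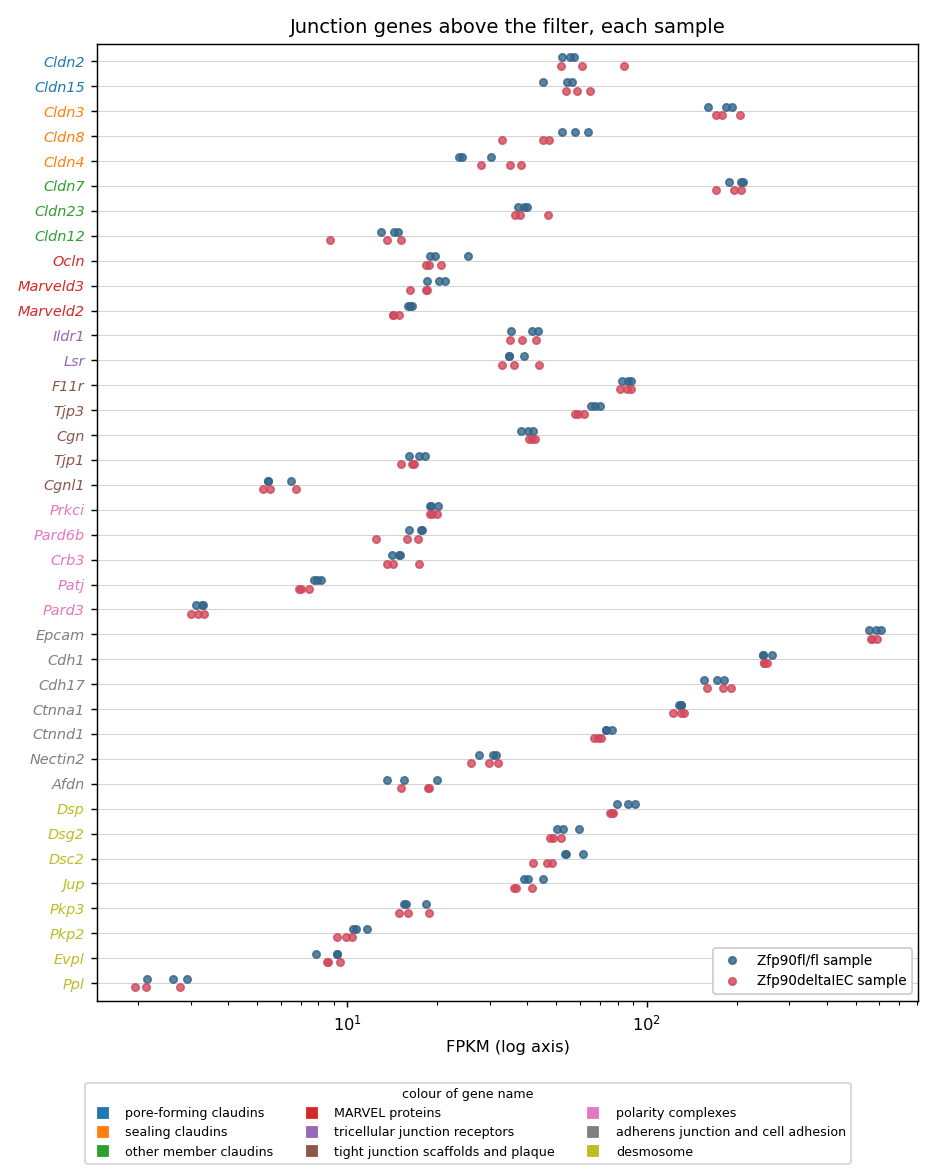
FPKM (log axis) of the 38 junction genes above the filter in each of the 3 Zfp90fl/fl (blue) and 3 Zfp90deltaIEC (red) samples, with gene names coloured by list. Epcam lies highest, at 554 to 608 FPKM, and Ppl lowest, at 1.95 to 2.92 FPKM.

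**Figure D2:**
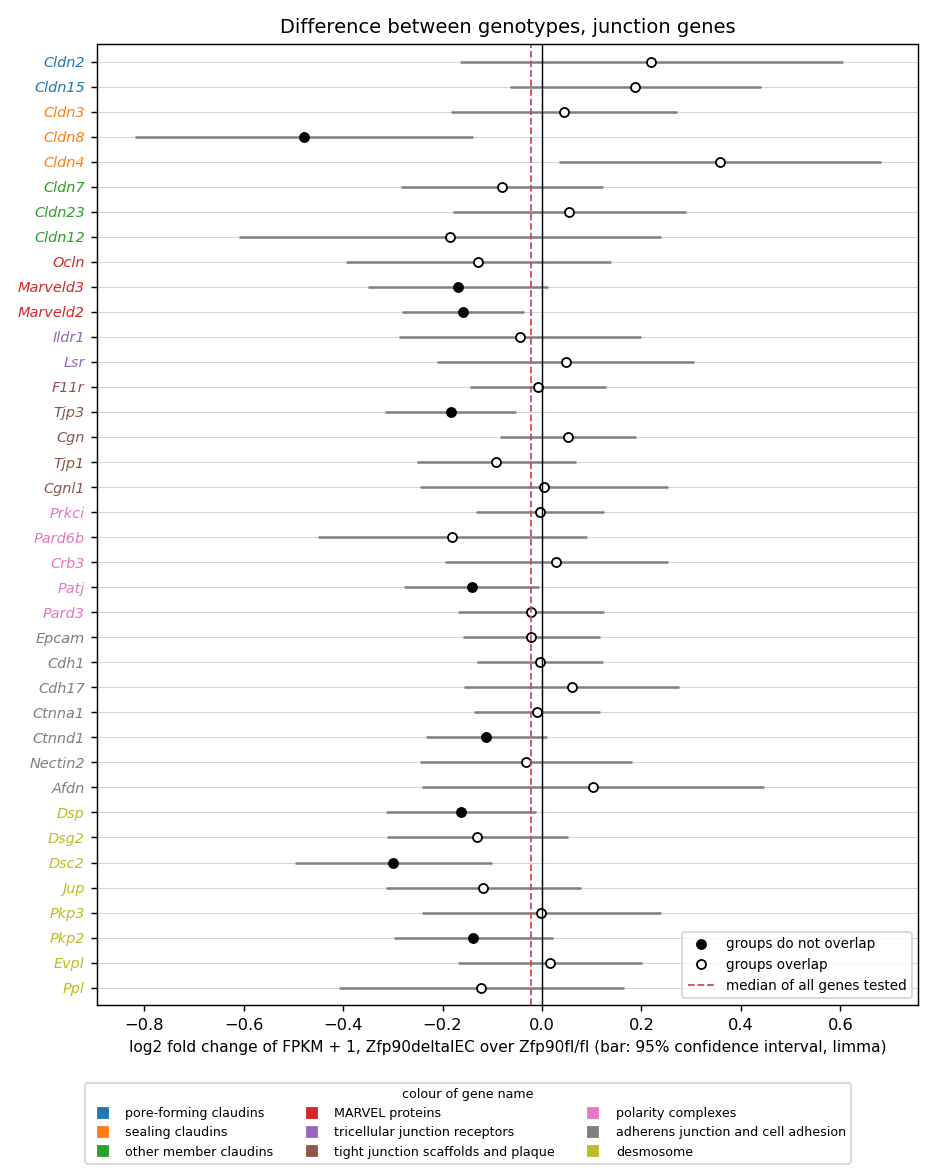
Log2 fold change of FPKM + 1 for each gene (point) with its 95% confidence interval (bar, limma, n = 3 against 3), filled where the samples of the genotypes do not overlap. Filled points lie at 9 genes, all left of 0, and the dashed line marks the median of all genes tested, -0.023.

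Expression differed widely between the junction genes and little between samples. Means over the 6 samples ran from 2.42 FPKM for Ppl, a plakin that links desmosomes to keratin, to 579 FPKM for Epcam, an adhesion molecule of epithelial cells. A mean above that of 90% of the genes tested was found for 19 of the 38. The median coefficient of variation within a genotype was 6.72% in Zfp90fl/fl samples and 7.73% in Zfp90deltaIEC samples. Its highest values were 20.2% for Afdn, the adherens junction adaptor afadin, in the Zfp90fl/fl samples and 26.5% for Cldn12 in the Zfp90deltaIEC samples. Zfp90deltaIEC replicate 1 held the lowest value of the 6 for 15 of the 38 genes, and Zfp90fl/fl replicate 2 held the highest for 15.

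The pore-forming claudins were among the abundant ones. Cldn2, which forms a channel for sodium and water, was measured at 55.3, 52.2 and 57.3 FPKM in Zfp90fl/fl samples and at 83.8, 60.7 and 51.7 FPKM in Zfp90deltaIEC samples. Replicate 1 of the latter stood above all other samples, and the groups overlapped. The log2 fold change was 0.22 (95% confidence interval -0.17 to 0.60, adjusted p = 0.584, limma) and became 0.029 without that replicate, which also had the highest goblet cell sum. Cldn15, the other cation channel, was at 44.9, 56.5 and 54.4 FPKM against 64.9, 58.7 and 53.9 FPKM. Its groups overlapped as well, with the lowest value in Zfp90fl/fl replicate 1 and the highest in Zfp90deltaIEC replicate 1 (log2 fold change 0.19, interval -0.06 to 0.44, adjusted p = 0.469, limma). Without the former sample the log2 fold change was 0.089.

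Of the sealing claudins, Cldn8 and Cldn4 stood on opposite sides of 0. Cldn8, a barrier claudin of the distal gut and kidney tubule, was at 52.3, 63.8 and 57.6 FPKM in Zfp90fl/fl samples and at 47.2, 32.9 and 44.9 FPKM in Zfp90deltaIEC samples. Every Zfp90deltaIEC value was below every Zfp90fl/fl value, and replicate 2 was the lowest. The means were 57.9 ± 5.76 and 41.7 ± 7.71 FPKM (SD, n = 3 each), and the log2 fold change of -0.48 (interval -0.82 to -0.14, adjusted p = 0.208, limma) was the most negative of the 38. Cldn4, a sealing claudin of many epithelia, was at 24.1, 30.1 and 23.7 FPKM against 27.9, 38.0 and 35.0 FPKM. Here Zfp90deltaIEC replicates 2 and 3 stood above all Zfp90fl/fl samples, while replicate 1 lay below Zfp90fl/fl replicate 2. Its log2 fold change of 0.36 (interval 0.03 to 0.68, adjusted p = 0.306, limma) was the most positive of the 38.

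Cldn3, the most abundant sealing claudin, was at 161, 193 and 184 FPKM in Zfp90fl/fl samples and at 171, 205 and 179 FPKM in Zfp90deltaIEC samples. The groups overlapped, and the log2 fold change was 0.044 (interval -0.18 to 0.27). Leaving out Zfp90fl/fl replicate 1 or Zfp90deltaIEC replicate 2 put it below 0, at -0.031 and -0.032. Cldn1 and Cldn5, the remaining sealing claudins, lay under the filter. Cldn1, the barrier claudin of the epidermis, was at 0.0120, 0 and 0.0109 FPKM against 0.0226, 0 and 0 FPKM. Cldn5, known from blood vessel walls, was at 0, 0.0754 and 0 FPKM against 0.0518, 0 and 0 FPKM, which at the depth estimated from the files corresponds to at most 3 fragments in a sample. No difference in either was detectable at this depth.

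Cldn7, which lies along the lateral membrane of gut epithelial cells, was the highest of all claudins, at 188, 210 and 207 FPKM against 171, 207 and 196 FPKM (log2 fold change -0.08, interval -0.28 to 0.12). The groups overlapped, and Zfp90deltaIEC replicate 1 was the lowest, without which the log2 fold change was -0.0015. Cldn23, a claudin of luminal gut epithelium, was at 37.1, 39.7 and 38.8 FPKM against 36.5, 46.9 and 37.7 FPKM. A high value in Zfp90deltaIEC replicate 2 set its log2 fold change of 0.055 (interval -0.18 to 0.29), which was -0.055 without that sample. Cldn12 was at 14.3, 14.8 and 12.9 FPKM against 8.77, 15.1 and 13.6 FPKM. Only Zfp90deltaIEC replicate 1 stood apart, and the log2 fold change of -0.18 (interval -0.61 to 0.24) became 0.032 without it.

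**Figure D3:**
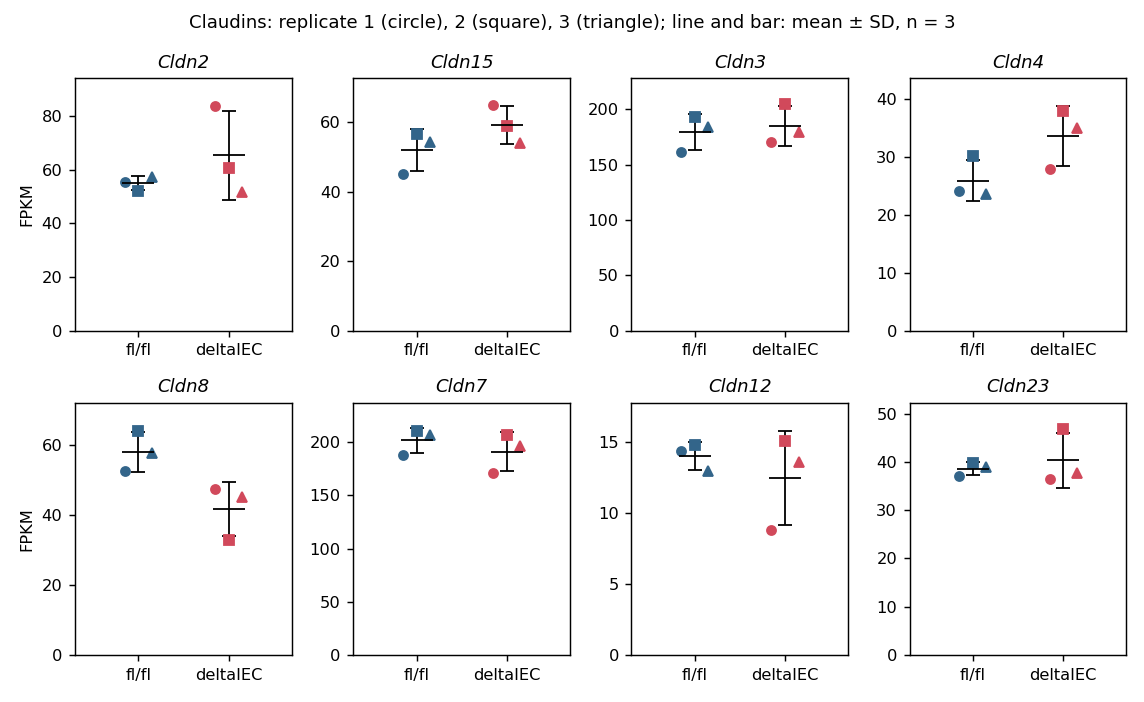
FPKM of the 8 claudins above the filter by genotype, with 1 symbol per replicate number and the mean ± SD (n = 3). The Cldn8 samples do not overlap, and the circle of Zfp90deltaIEC replicate 1 stands high for Cldn2 (83.8 FPKM) and low for Cldn12 (8.77 FPKM).

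In order of mean FPKM the claudins ran Cldn7, Cldn3, Cldn8, Cldn2, Cldn15, Cldn23, Cldn4 and Cldn12 in Zfp90fl/fl samples. In Zfp90deltaIEC samples Cldn8 came after Cldn2 and Cldn15, and the order was otherwise the same. Neighbours whose sample values overlapped were Cldn7 with Cldn3 and Cldn2 with Cldn15 in both genotypes, Cldn8 with Cldn2 in Zfp90fl/fl samples, and Cldn8 with Cldn23 and Cldn23 with Cldn4 in Zfp90deltaIEC samples. Added together, the 10 claudins amounted to 624 ± 42.4 FPKM (SD, n = 3) in Zfp90fl/fl samples and 629 ± 30.5 FPKM (SD, n = 3) in Zfp90deltaIEC samples, so that the total differed by less than the spread within a genotype. As a share of this total, Cldn8 made up 9.06%, 9.67% and 9.07% in Zfp90fl/fl samples and 7.73%, 4.95% and 7.34% in Zfp90deltaIEC samples, again without overlap. The share of Cldn4 was 4.17%, 4.57% and 3.72% against 4.57%, 5.73% and 5.72%. These shares held Zfp90deltaIEC replicate 1 level with the highest Zfp90fl/fl sample, and the other Zfp90deltaIEC samples above it.

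The balance of pore-forming to sealing claudins was taken in each sample as the FPKM of Cldn2 and Cldn15 over that of Cldn1, Cldn3, Cldn4, Cldn5 and Cldn8. The ratio was 0.422, 0.379 and 0.421 in Zfp90fl/fl samples and 0.605, 0.433 and 0.407 in Zfp90deltaIEC samples. Zfp90deltaIEC replicate 1 stood far above the rest, replicate 2 slightly above all Zfp90fl/fl samples, and replicate 3 among them. On the log2 scale the means were -1.30 ± 0.0881 (SD, n = 3) and -1.08 ± 0.308 (SD, n = 3), a difference of 0.222. Without Zfp90deltaIEC replicate 1 the difference was 0.0456. The pore-forming sum was 148.7 FPKM in that replicate and between 100.2 and 119.4 FPKM in the other 5 samples, while its sealing sum of 245.7 FPKM lay inside the range of the others, 237.6 to 286.8 FPKM. No test was run on this ratio, since its genes were chosen with earlier results known.

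**Figure D4:**
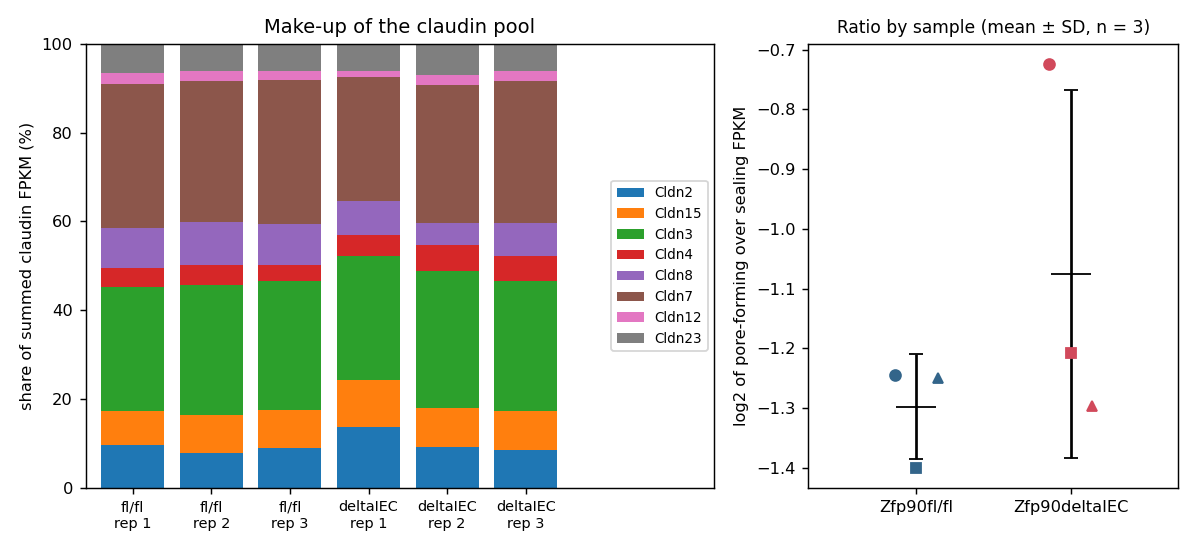
Left, share (%) of each claudin above the filter in the summed FPKM of the 10 claudins, with 1 bar per sample; right, log2 ratio of pore-forming to sealing claudins by sample (symbols as replicate 1 circle, 2 square, 3 triangle) with mean ± SD (n = 3). Cldn7 and Cldn3 fill 55.9% to 62.0% of each bar, and Zfp90deltaIEC replicate 1 has the highest ratio, -0.724.

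Within the sealing class, Cldn4 was set against Cldn8 after their values were seen. The ratio of Cldn4 to Cldn8 was 0.461, 0.472 and 0.410 in Zfp90fl/fl samples and 0.591, 1.16 and 0.779 in Zfp90deltaIEC samples. All Zfp90deltaIEC samples lay above all Zfp90fl/fl samples, with the widest gap in replicate 2, where Cldn4 exceeded Cldn8. The Cldn8 to Cldn3 ratio, taken the same way, was 0.325, 0.331 and 0.313 against 0.277, 0.160 and 0.251. Surface colonocyte sums were likewise separated by genotype and highest in replicate 2, and their part in these ratios was not tested.

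The MARVEL proteins, which span the membrane within the strands, all had log2 fold changes below 0, where 57.2% of all genes did. They were also all below 0 under quantile normalization and median ratio scaling, beside 52.6% and 49.7% of all genes. At an unadjusted p below 0.05 there was 1 of the 3, against 14.6% of all genes. Ocln, encoding occludin, was at 18.8, 19.6 and 25.2 FPKM in Zfp90fl/fl samples and at 20.5, 18.4 and 18.7 FPKM in Zfp90deltaIEC samples. The groups overlapped, and the mean difference (log2 fold change -0.13, interval -0.39 to 0.14, adjusted p = 0.651, limma) rested on the high value of Zfp90fl/fl replicate 3, without which it was -0.0021. Marveld2, encoding tricellulin of the points where 3 cells meet, was at 15.9, 16.5 and 16.2 FPKM against 14.2, 14.2 and 14.9 FPKM. The groups did not overlap, and the coefficients of variation were 1.60% and 3.01% (log2 fold change -0.16, interval -0.28 to -0.04, adjusted p = 0.246, limma). Marveld3 was at 18.5, 20.2 and 21.2 FPKM against 18.4, 16.2 and 18.3 FPKM. On the deposited FPKM the groups just missed each other, at 18.5 and 18.4 FPKM (log2 fold change -0.17, interval -0.35 to 0.01). They overlap after median ratio scaling. Lsr and Ildr1, the receptors that bring tricellulin to those points, were at 34.6 to 39.0 FPKM and 35.1 to 43.3 FPKM in Zfp90fl/fl samples and at 32.9 to 43.6 FPKM and 35.1 to 42.7 FPKM in Zfp90deltaIEC samples. Their log2 fold changes were 0.047 and -0.044, with overlap in both.

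Of the scaffold and plaque genes, Tjp3 was separated by genotype and Tjp1 was not. Tjp1, encoding ZO-1, was at 17.3, 18.2 and 16.1 FPKM in Zfp90fl/fl samples and at 16.7, 15.1 and 16.4 FPKM in Zfp90deltaIEC samples. The values interleaved, with a log2 fold change of -0.09 (interval -0.25 to 0.07, adjusted p = 0.579, limma). Tjp3, encoding ZO-3 of epithelial tight junctions, was at 67.5, 70.0 and 65.3 FPKM against 57.6, 61.7 and 59.0 FPKM. All Zfp90deltaIEC samples were lower, by 12.1% on average (67.6 ± 2.32 against 59.4 ± 2.08 FPKM, SD, n = 3 each, log2 fold change -0.18, interval -0.31 to -0.05, adjusted p = 0.209, limma). The log2 fold changes of Cgn (cingulin), Cgnl1 (paracingulin) and F11r (the adhesion molecule JAM-A) were 0.052, 0.0045 and -0.0079, with overlap in each. F11r was the most abundant of the scaffold and plaque list at 81.8 to 89.0 FPKM over all samples, and Cgnl1 the least at 5.22 to 6.74 FPKM.

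Promoters of Cldn2, Cldn4 and Tjp3 are shown because these genes stand for the channel claudins, the highest log2 fold change and the ZO proteins in the results above. The 250 bases before each RefSeq start (GRCm38.p6) are given 5′ to 3′ on the strand of the gene, in lower case, with capitals marking CACCTG or its reverse complement CAGGTG, the E-box recognised by Snail and Zeb repressors of junction genes. They are chrX:139800558-139800807 (+) for Cldn2, chr5:134946935-134947184 (-) for Cldn4, and chr10:81291582-81291831 (-) and chr10:81291268-81291517 (-) for the 2 starts of Tjp3.
Cldn2: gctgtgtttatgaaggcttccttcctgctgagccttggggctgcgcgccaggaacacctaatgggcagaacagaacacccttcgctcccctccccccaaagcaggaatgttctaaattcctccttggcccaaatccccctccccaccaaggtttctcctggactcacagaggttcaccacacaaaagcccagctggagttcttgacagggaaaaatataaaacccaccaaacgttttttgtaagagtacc
Cldn4: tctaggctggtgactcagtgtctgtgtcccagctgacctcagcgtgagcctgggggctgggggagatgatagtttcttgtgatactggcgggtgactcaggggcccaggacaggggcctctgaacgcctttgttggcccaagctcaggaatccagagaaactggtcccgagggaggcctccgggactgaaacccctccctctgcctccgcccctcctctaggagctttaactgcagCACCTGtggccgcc
Tjp3 start 1: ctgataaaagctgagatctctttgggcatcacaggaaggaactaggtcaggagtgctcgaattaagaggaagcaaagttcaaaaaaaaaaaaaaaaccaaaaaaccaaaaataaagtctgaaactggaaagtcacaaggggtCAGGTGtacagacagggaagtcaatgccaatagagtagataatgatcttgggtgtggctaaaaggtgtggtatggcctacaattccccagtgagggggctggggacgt
Tjp3 start 2: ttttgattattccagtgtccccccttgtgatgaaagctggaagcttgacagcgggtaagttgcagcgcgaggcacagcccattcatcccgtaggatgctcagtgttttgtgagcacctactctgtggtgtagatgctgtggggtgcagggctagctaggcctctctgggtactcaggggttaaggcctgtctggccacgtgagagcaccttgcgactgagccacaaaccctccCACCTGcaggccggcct

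The match in the Cldn4 window begins 14 bases before the start, and those of Tjp3 begin 108 and 17 bases before their starts, while the Cldn2 window holds no match. Over the 39 windows of the 28 junction genes found in the RefSeq promoter table, 38.5% held the motif on either strand, in 13 genes. Of all 32851 windows of the same length 17.2% held it. The junction windows were also richer in G and C, at 60.5% of bases against 53.2%. The repressor genes Snai1, Snai2, Zeb1, Zeb2 and Twist1 were at most 0.232 FPKM in every sample, and Twist1 was listed at 0 throughout.

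The polarity genes, which set the apical border that tight junctions mark, had 4 of 5 log2 fold changes below 0 and a median of -0.022. Of all genes tested, 57.2% were below 0. Under quantile normalization or median ratio scaling it was 3 of 5, beside 52.6% and 49.7% of all genes. Patj, a scaffold of the Crumbs complex, was at 8.18, 7.92 and 7.74 FPKM in Zfp90fl/fl samples and at 6.89, 6.99 and 7.47 FPKM in Zfp90deltaIEC samples. The groups did not overlap, with replicate 3 of each genotype nearest the other (log2 fold change -0.14, interval -0.28 to -0.01, adjusted p = 0.325, limma). Pard6b, of the Par complex, had the larger log2 fold change of -0.18 but overlapped, since Zfp90deltaIEC replicate 1 lay at 12.4 FPKM and replicates 2 and 3 at 15.8 and 17.2 FPKM, against 16.1 to 17.7 FPKM. Its partners Pard3 and Prkci, the latter an atypical protein kinase C, and the apical protein gene Crb3 had log2 fold changes of -0.022, -0.0042 and 0.029, all with overlap.

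In the adherens junction, expression of Cdh1 was nearly equal in the genotypes. Cdh1 was at 244, 262 and 245 FPKM in Zfp90fl/fl samples and at 254, 247 and 247 FPKM in Zfp90deltaIEC samples. The Zfp90deltaIEC values lay inside the range of the others, and the log2 fold change was -0.0048 (interval -0.13 to 0.12, adjusted p = 0.975, limma). A scaling by median ratios turned its sign, to 0.023. Ctnnd1, encoding p120-catenin, which keeps E-cadherin at the membrane, was at 73.3, 76.5 and 73.3 FPKM against 66.9, 68.9 and 70.4 FPKM. All Zfp90deltaIEC samples were lower, by 7.59% on average (log2 fold change -0.11, interval -0.23 to 0.01, adjusted p = 0.381, limma). The other 5 genes of this list overlapped between genotypes. They were Cdh17 (a cadherin of gut epithelium), Ctnna1 (alpha-catenin), Nectin2, Afdn and Epcam, with log2 fold changes between -0.033 for Nectin2 and 0.10 for Afdn.

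Of the 8 desmosomal genes, 7 had a log2 fold change below 0, where 57.2% of all genes did. With quantile normalization or median ratio scaling it was 6 of 8, beside 52.6% and 49.7% of all genes. The median was -0.13, beside -0.023 over all genes tested. With median ratio scaling it was -0.10, beside 0.00086 over all genes. At an unadjusted p below 0.05 there were 2 of 8, both lower in Zfp90deltaIEC samples (8.09% of all genes in this direction). On the deposited FPKM, 3 of 8 lay lower without overlap (12.6% of all genes). None of the 8 passed the adjusted threshold of limma. Dsc2, a desmosomal cadherin, was at 53.4, 61.5 and 53.6 FPKM in Zfp90fl/fl samples and at 46.5, 48.2 and 41.6 FPKM in Zfp90deltaIEC samples. Every Zfp90deltaIEC value was below every Zfp90fl/fl value, and the mean was lower by 19.1% (56.2 ± 4.63 against 45.5 ± 3.44 FPKM, SD, n = 3 each). Its log2 fold change was -0.30 (interval -0.50 to -0.10, adjusted p = 0.183, limma). Leaving out each sample in turn kept it between -0.34 and -0.23.

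Dsp, encoding desmoplakin, the plakin that anchors keratin to the desmosome, was at 86.9, 91.3 and 79.7 FPKM against 75.5, 77.0 and 77.3 FPKM. The Zfp90deltaIEC samples were close together and below the others (log2 fold change -0.16, interval -0.31 to -0.01, adjusted p = 0.315, limma). Pkp2, a plakophilin of the desmosomal plaque, was at 10.4, 11.6 and 10.7 FPKM against 9.24, 10.4 and 9.88 FPKM. Zfp90fl/fl replicate 1 and Zfp90deltaIEC replicate 2 came within 0.1 FPKM of each other without crossing (log2 fold change -0.14, interval -0.30 to 0.02, adjusted p = 0.407, limma). After median ratio scaling these 2 samples cross.

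Dsg2, the cadherin that pairs with Dsc2, was at 52.7, 59.5 and 50.2 FPKM in Zfp90fl/fl samples and at 48.7, 47.5 and 51.7 FPKM in Zfp90deltaIEC samples, with overlap and a log2 fold change of -0.13. Dsg2 and Dsc2 were thus near equal per length of transcript. The ratio of Dsg2 to Dsc2 was 0.988, 0.968 and 0.935 against 1.05, 0.984 and 1.24, and overlapped. The remaining genes, Jup (plakoglobin), Ppl and Evpl (periplakin and envoplakin) and Pkp3, had log2 fold changes of -0.12, -0.12, 0.016 and -0.0014, all with overlap. Markers of squamous epithelium, such as the anal skin, whose cells are rich in desmosomes, summed to 1.37 to 2.41 FPKM against 1.29 to 2.08 FPKM.

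**Figure D5:**
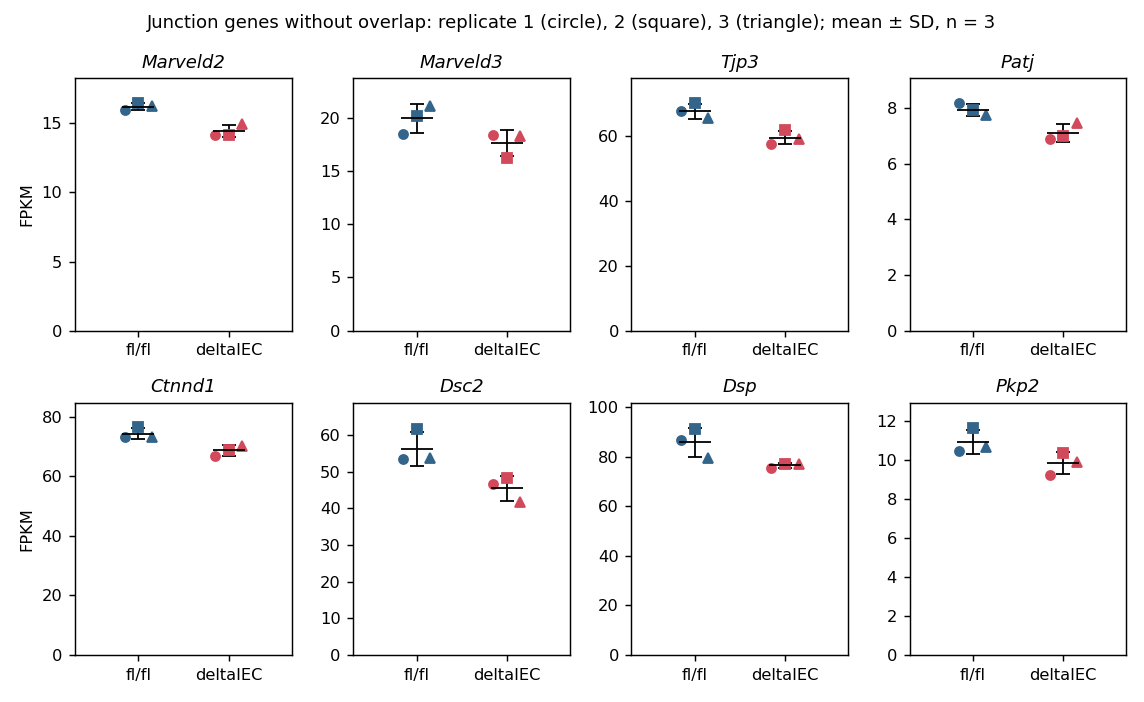
FPKM by genotype of 8 of the 9 junction genes whose samples did not overlap on the deposited FPKM (the other, Cldn8, is in the plot of claudins), with 1 symbol per replicate number and the mean ± SD (n = 3). Each axis starts at 0; the means of the Zfp90deltaIEC samples lie lower by between 7.59% (Ctnnd1) and 19.1% (Dsc2).

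Other genes of these structures, and genes listed as acting on them, gave no call either. Of 142 further genes in 8 lists, 91 were tested with limma, and 0 had an adjusted p below 0.05. Over all genes tested the share was 0.199%, so a count of 0 among 91 is near that share. At an unadjusted p below 0.05 there were 14 (15.4%, against 14.6% of all genes), 8 lower and 6 higher in Zfp90deltaIEC samples. By list, the counts tested were 1 further claudin-like gene, 15 tight junction, 12 polarity, 15 adherens junction, 7 desmosome or keratin, 11 hemidesmosome, 19 contraction and turnover genes and 11 transcription factors. Those at an unadjusted p below 0.05 were, in the same order, 0, 1 lower, 0, 2 lower and 3 higher, 1 higher, 1 lower, 2 lower, and 2 lower and 2 higher.

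The gene with the largest moderated statistic of each list is named here. Ovol1, a transcription factor of epithelial differentiation, was at 10.2, 11.5 and 12.3 FPKM in Zfp90fl/fl samples and at 14.0, 15.3 and 15.8 FPKM in Zfp90deltaIEC samples. It was higher in all Zfp90deltaIEC samples without overlap (log2 fold change 0.38, adjusted p = 0.117, limma). Cdhr2, a protocadherin that links microvilli, was likewise higher in all, at 121 to 133 FPKM against 105 to 110 FPKM (log2 fold change 0.25, adjusted p = 0.127, limma). Krt18, a keratin of simple epithelia, was at 324 to 367 FPKM against 290 to 315 FPKM, also without overlap (adjusted p = 0.240, limma). The others were lower in Zfp90deltaIEC samples. Their log2 fold changes were -0.48 for Mmp7 (a protease that sheds junction proteins), -0.58 for Pard3b, -0.44 for Lama3 (a laminin chain), -0.15 for Vasp (an actin regulator) and -0.10 for Cldnd1, with adjusted p between 0.199 and 0.684 (limma). Mmp7 lay near the filter, at 1.56, 1.84 and 1.13 FPKM in Zfp90fl/fl samples against 0.919, 0.925 and 0.534 FPKM. It met the filter only through the Zfp90fl/fl samples, so its direction was partly set by the filter. It is also among the genes counted as lower above.

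Grhl2, a transcription factor known to maintain Cdh1 and claudin expression, was singled out after its values were seen. It was at 12.9, 11.9 and 11.9 FPKM in Zfp90fl/fl samples and at 5.40, 10.3 and 4.24 FPKM in Zfp90deltaIEC samples. The Zfp90fl/fl values were close together, and all Zfp90deltaIEC values were lower but far apart from each other (log2 fold change -0.87, interval -1.48 to -0.26, adjusted p = 0.206, limma).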

How the data were processed

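Gene expression was measured by RNA-seq in 6 samples of colon epithelium, 3 per genotype, grouped by sample title. The authors deposited 1 value per gene and sample, read here as FPKM from the methods and the values, since the files name no unit. The submitters' processing notes name STAR 2.5, Cuffnorm, DESeq 1.22.1 and build mm9, whereas the paper names TopHat, Cuffdiff and a human build. Of 52550 mouse gene identifiers, 147 had no symbol in the GRCm38 annotation.

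From the deposited FPKM, a gene was kept where 3 or more samples reached 1 FPKM, and the 11564 kept genes were tested on log2(FPKM + 1) with limma 3.58.1 (R 4.3.3, trend, no block) and Benjamini-Hochberg adjustment over all of them. The pseudocount of 1 shrinks fold changes of low genes. The junction genes, lists and tests were chosen with earlier results of these data known. Values in every sample are given for Zfp90, claudins above the filter, Tjp1, Ocln, Cdh1, any gene called and the 8 others with the largest absolute moderated t, and the other 19 genes above the filter by range or fold change, except that Dsg2 and Pard6b, chosen after their values were seen, are also given by sample. Ratios of Cldn4, Cldn8, Cldn3, Dsg2 and Dsc2, and Grhl2, were chosen after their values were seen.

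Depth, estimated from the steps of low values in genes with a single transcript, was 25.7 to 28.6 M fragments, with 55.8% to 61.0% of values within 10% of a whole step. Nothing in the labels states that samples are separate mice, so p-values measure the spread between these samples. Promoter sequences are RefSeq (GRCm38.p6), and Dsg2, Pkp2, Evpl, Ctnna1, Cdh17, Cdh1, Ppl, Cldn23, Dsc2, Pkp3, Cldn8 and Marveld3 were not matched. Alternatives were a pseudocount of 0.1, no filter, a filter of 0.1 FPKM, quantile normalization, median ratio scaling, the replicate number as a block and leaving out each sample, and for the claudin ratio other class definitions.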

Additional observations from a re-analysis of the deposited data

How the results depend on the processing

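Of the 38 junction genes tested with limma, 0 passed an adjusted p below 0.05 under every alternative. An unadjusted p below 0.05 was found for 3 to 8 (8 of 40 without a filter), beside 9.96% to 16.2% of all genes. The lowest count, 3 of 38, came without Zfp90fl/fl replicate 2 and without Zfp90deltaIEC replicate 2. In these fits 11.2% and 12.1% of all genes had such a p. Over all genes, 23 were called, 13 with a pseudocount of 0.1, 15 without a filter, 31 with a filter of 0.1 FPKM, 20 with quantile normalization, 25 with median ratio scaling and 10 to 21 when a sample was left out. The median log2 fold change of the junction genes was -0.081 to -0.017 over the fits without 1 sample, beside -0.025 to -0.017 over all genes. With median ratio scaling it was -0.0036, beside 0.00086 over all genes. The cause of these shifts was not tested.

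The log2 fold change of Cdh1 changed sign with median ratio scaling (0.023) and ranged from -0.022 to 0.028 when a sample was left out. Likewise those of Cldn3 (-0.032 to 0.10), Cldn23 (-0.055 to 0.12) and Cldn12 (-0.33 to 0.032) changed sign in at least 1 fit without a sample, and the other 15 of the 19 junction genes with values given by sample under the naming rule in none. Of the other 19 junction genes above the filter, 14 changed sign in at least 1 such fit, with values between -0.13 and 0.25, and 5 did not. The claudin ratio differed by 0.0456 to 0.332 when a sample was left out, by 0.242 with Cldn7 and Cldn23 counted as sealing and by 0.221 from mean log2 values.

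The replicate numbers were not taken as pairs in the main fit, since the methods of the paper name no block. Samples with the same number deviated together with correlations of 0.194, 0.110 and 0.0782. Samples with different numbers were not compared in this way, so these values do not decide whether the numbers mark pairs. With the replicate block, 47 genes were called over all genes and 0 junction genes (lowest adjusted p = 0.136, Dsc2), and the median log2 fold change was -0.028.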
